A study of Mus musculus with 6 samples.

Results

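Nnt, Wdfy1, Entpd4, Glo1, Alad and Ifi202b are 6 mouse genes for which deletions, duplications or differences in expression are known among inbred strains. They were chosen by name, with earlier results of these data known, and all 6 were among the 18620 genes tested of 47233 gene names used. Expression was measured by RNA-Seq in frozen, unfixed liver of 3 laboratory mice and 3 wild mice (Mus musculus). The laboratory mice were adult inbred C57BL/6 males, and the labels do not give the substrain. The wild mice were outbred adults, trapped alive and then kept for some months under standard husbandry, and wild mouse 1 was male while wild mice 2 and 3 were female. The labels name no transgene and no treatment. Origin, housing, time of preparation and, in part, sex differed together between the groups and cannot be told apart. For the wild mice no age beyond adult is given, and wild mouse 3 was trapped at another site than wild mice 1 and 2.

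The C57BL/6 mice descend from one inbred founder stock, and the mouse reference genome was built from its C57BL/6J substrain. A deletion or duplication that is fixed in an inbred strain sets the number of gene copies, and with it often the amount of RNA, whereas wild house mice can carry either form. Nnt (nicotinamide nucleotide transhydrogenase) makes NADPH in mitochondria and has lost several exons in C57BL/6J. Glo1 (glyoxalase I, which detoxifies methylglyoxal) and Alad (delta-aminolevulinate dehydratase, an enzyme of heme synthesis) lie in segments that are duplicated in some inbred strains other than C57BL/6J. Ifi202b, a DNA-binding protein of the interferon-inducible Ifi200 family that inhibits the DNA sensor Aim2, is silent in C57BL/6 animals with a small deletion at its 5′ end. Entpd4, a nucleoside diphosphatase of the Golgi and lysosomes, and Wdfy1, an endosomal adaptor of Toll-like receptor 3 and 4 signalling, have been described as differing between C57BL/6 substrains.

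The level of a gene is given as FPKM, the number of fragments of a gene scaled for transcript length and for all mapped fragments. The test used zFPKM, the log2 FPKM of each mouse centred and scaled by that mouse's own distribution, with values under -3 set to -3. At an adjusted p under 0.05 (limma, Benjamini-Hochberg adjustment over 18620 genes), 14.5% of all tested genes differed, 7.28% lower and 7.17% higher in laboratory mice. These shares are the background for each count of calls below. On log2(FPKM + 0.1) only 17.7% of the calls were higher in laboratory mice, against 49.6% in zFPKM. Of the 6 genes, Nnt and Ifi202b were lower in laboratory mice, 0 were higher (0 also at an unadjusted p under 0.05) and 4 did not pass. The zFPKM of the groups did not overlap for Nnt, Entpd4 and Ifi202b, against 28.3% of all tested genes. Ifi202b entered the test only through the wild mice, so it had to differ.

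**Figure D1:**
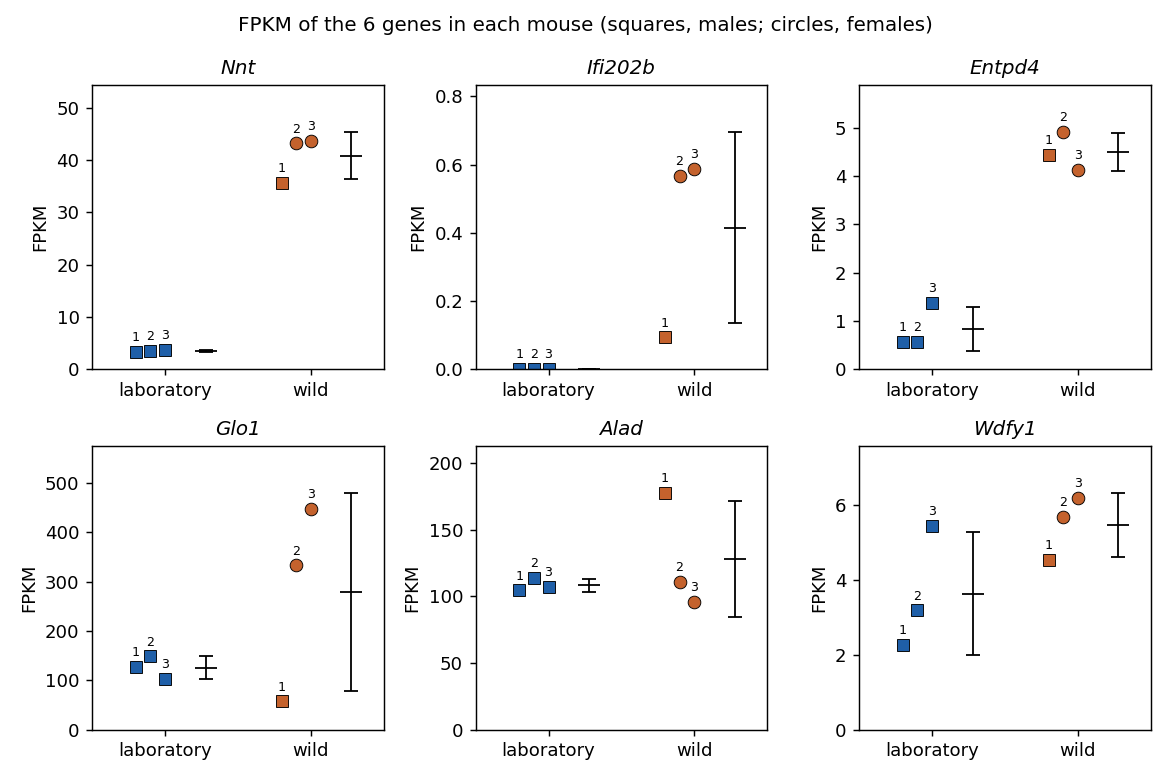
FPKM (vertical axes, linear from 0) of each gene in the 3 laboratory and 3 wild mice, with the mouse number at each point, squares for males, circles for females, and the mean ± SD of each group beside the points. The groups are apart for Nnt, Ifi202b and Entpd4, and overlap for Glo1, Alad and Wdfy1, with wild mouse 1 lowest for Glo1 and highest for Alad. For Ifi202b the copy listed for all 6 mice is drawn.

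Nnt lies on the minus strand of chromosome 13 (chr13:119335527-119409257 of GRCm38.p6). In the GENCODE transcript compared, which has 17 exons and 2505 coding bases, the sixth exon is followed directly by the next exon that the reference retains. The 60 bases across this join are shown because the exons that C57BL/6J lacks belong between them. Lower case marks the last 30 bases of the sixth exon (chr13:119386579-119386608) and capitals the first 30 bases of the exon after it (chr13:119381834-119381863), read 5′ to 3′ on the minus strand.
Nnt exon join: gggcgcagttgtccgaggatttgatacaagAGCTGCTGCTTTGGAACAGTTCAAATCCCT
The deposited values are one FPKM for the whole gene, so neither this join nor single exons were measured, and reads from exons that the reference lacks have no place in it.

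The FPKM of Nnt was 3.20, 3.48 and 3.60 in laboratory mice 1, 2 and 3, a mean of 3.43 ± 0.201 (SD, n = 3). In wild mice 1, 2 and 3 it was 35.7, 43.2 and 43.7, a mean of 40.9 ± 4.50 (SD, n = 3). Every wild mouse lay far above every laboratory mouse, and the mean was 11.9 times higher in wild mice. The wild male alone was at 10.4 times the mean of the laboratory males. Nnt ranked between the 70.0 and 71.6 percentiles of the entries with an FPKM above 0 in the laboratory mice and between the 90.6 and 92.3 percentiles in the wild mice. Nnt RNA was thus measured in every C57BL/6 liver.

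In zFPKM, Nnt was lower in laboratory mice by 0.992 (difference -0.99, standard error 0.178, 95% interval -1.34 to -0.64, adjusted p = 1.26e-06, limma). The difference in mean log2 FPKM was -3.57 (exact permutation test, two-sided, p = 0.1, which is the smallest that 3 mice against 3 allow). On log2(FPKM + 0.1) it was -3.53, or -3.07 relative to the median tested gene, which was itself shifted by -0.47. The direction was the same in every alternative, with limma's adjusted p between 2.78e-06 and 0.347. The call was lost with sex as a covariate (-0.78, adjusted p = 0.0519) and without a variance trend (adjusted p = 0.0507).

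Genes of mitochondrial NADPH supply and thiol defence, the processes Nnt serves, had calls in both directions. Of 19 listed genes 17 were tested, of which 1 was higher in laboratory mice, 3 were lower and 13 did not pass, with a median zFPKM difference of -0.02 against 0.00494 over all tested genes. Idh2, the mitochondrial isocitrate dehydrogenase that also makes NADPH, had FPKM values of 7.95, 13.8 and 10.6 in laboratory mice against 112, 122 and 108 in wild ones (zFPKM difference -0.94, limma adjusted p = 6.56e-09). Gpx1, a glutathione peroxidase and the highest of the list by FPKM, was at 557, 744 and 327 against 2404, 2416 and 1754 (-0.47, adjusted p = 1.45e-05). Both were lower in all laboratory mice than in any wild mouse. Glud1, glutamate dehydrogenase, was also lower (-0.40, adjusted p = 0.00376). Me3, the mitochondrial NADP-dependent malic enzyme, went the other way, with FPKM values of 4.32, 6.47 and 6.97 in laboratory mice against 2.46, 1.03 and 0.695 in wild ones (1.02, adjusted p = 0.00106). With sex as a covariate Idh2 and Gpx1 still passed, and Glud1 and Me3 did not. Glud1 also lost its call without wild mouse 3 (-0.36, adjusted p = 0.0837) and Me3 without laboratory mouse 2 (0.95, adjusted p = 0.0537).

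The nearest tested genes on each side of Nnt, with midpoints at -989 and 71.9 kb from its own, did not pass the test. Mrps30 on one side had FPKM values of 12.6, 13.2 and 9.26 in laboratory mice against 16.8, 14.1 and 13.6 in wild ones (zFPKM difference 0.11, limma adjusted p = 0.754). Paip1 on the other side was at 11.5, 12.8 and 12.2 against 14.6, 18.2 and 15.9 (0.11, adjusted p = 0.763). Of the 10 nearest tested genes only Gm35144 passed, lower in laboratory mice (-1.48, limma adjusted p = 0.00719), against 14.5% of all tested genes. Its midpoint is at -2143 kb from that of Nnt.

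Ifi202b lies on the minus strand of chromosome 1 (chr1:173962569-173982844) and is also annotated on 3 alternate sequences of the same assembly. The window around its annotated start is shown because Ifi202b was listed at 0 in every C57BL/6 mouse. It runs from 250 bases before the start to 50 bases after it in RefSeq on GRCm38.p6 (chr1:173982795-173983094, minus strand), and the capitals mark the matches to TATAAA on either strand.
Ifi202b promoter: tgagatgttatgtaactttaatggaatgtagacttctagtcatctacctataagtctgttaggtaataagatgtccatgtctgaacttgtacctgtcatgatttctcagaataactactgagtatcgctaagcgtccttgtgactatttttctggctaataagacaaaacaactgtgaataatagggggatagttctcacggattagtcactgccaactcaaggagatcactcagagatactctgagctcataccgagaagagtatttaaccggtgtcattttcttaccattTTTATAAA
The window is 37.0% G and C, against a median of 52.7% over 32851 promoters of the same length, and its 2 matches to TATAAA overlap on opposite strands in the last 8 bases, after the annotated start and not before it. TATAAA was present in 13.6% of all promoters. There was no match to CCAAT (37.4% of all promoters), GGGCGG (35.7%), CACGTG (7.15%) or the core of an interferon-stimulated response element, GAAA and GAAA with 2 bases between them (3.44%), on either strand.

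Ifi202b was listed at 0 in all 3 laboratory mice, at each copy listed for them (1 copy in laboratory mouse 1 and 4 in the others). The one copy that is listed for all 6 mice lies on an alternate sequence, and its FPKM in the wild mice was 0.0924, 0.566 and 0.587. At the chromosome 1 copy the wild mice had 0.0312, 0.287 and 0.235. Summed over the 4 copies it was 0.294, 1.85 and 1.71 in wild mice 1, 2 and 3. Wild mice 2 and 3 were above wild mouse 1 at every copy. In wild mouse 1 the lower bound that Cufflinks gave for its estimate was 0 at all 4 copies, so its value cannot be told from 0. No fold change is given against a group listed at 0.

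With zFPKM values under -3 set to -3, the difference of Ifi202b at the alternate copy listed for all 6 mice was -1.74 (standard error 0.465, adjusted p = 0.00267, limma), and its size followed the floor, at -3.74 with a floor of -5 and -18.7 with a floor of -20. Its adjusted p lay between 0.00151 and 0.450 in the alternatives. The call was lost without wild mouse 3 (-1.55, adjusted p = 0.0590) and with sex as a covariate (-0.79, adjusted p = 0.383), where the wild male stands for the wild group beside the laboratory males.

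The calls among the other genes of the Ifi200 family, which bind DNA and respond to interferon, were in the direction opposite to that of Ifi202b. Of the 14 listed genes, 7 were tested, of which 3 were higher in laboratory mice, 0 were lower (0 at an unadjusted p under 0.05 as well, limma) and 4 did not pass. Over all tested genes 7.17% were called higher and 7.28% lower in laboratory mice. The median zFPKM difference of the 7 family genes was 1.15, against 0.00494 over all tested genes. The 3 calls had the same sign on every scale tried. One of the 3, Ifi213, was at 0.482, 0.483 and 0.708 in the laboratory group and was listed at 0 in every wild mouse, so it entered the test only through the laboratory mice, had to differ, and has a size set by the floor. Ifi206 was at 0.203, 0.232 and 0.264 against 0.0134, 0 and 0.0129 (zFPKM difference 1.78, adjusted p = 0.0023). It was above the floor in only 1 wild mouse, so it met the filter through the laboratory mice and its size depends in part on the floor. Ifi211, the immediate tested neighbour of Ifi202b, had the highest mean of the tested family members in laboratory mice but not in wild mice. It was at 0.848, 0.666 and 1.04 in the laboratory group against 0.0959, 0.132 and 0.183 in the wild group (1.17, limma adjusted p = 0.0405). These are low levels, and for all 3 genes the groups were fully apart. With sex as a covariate Ifi206 did not pass (1.85, adjusted p = 0.0525) and Ifi211 did. The call of Ifi211 was lost with any mouse but laboratory mouse 3 left out (1.03 without laboratory mouse 1, 1.14 without laboratory mouse 2, and 0.90, 1.32 and 1.27 without wild mouse 1, 2 and 3, adjusted p between 0.0550 and 0.263).

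Aim2, the sensor that Ifi202b inhibits, had FPKM values of 0.416, 0.598 and 0.900 in laboratory mice against 0.106, 0.0884 and 0.312 in wild ones, without passing the test (zFPKM difference 0.97, limma adjusted p = 0.117). The neighbour Ifi203-ps, a pseudogene, was at 1.34, 1.06 and 2.15 against 0.0234, 0.0381 and 0.171 (1.90, adjusted p = 0.000242). Fmn2, the nearest tested gene on the other side, with its midpoint at 690 kb from that of Ifi202b, did not pass (-1.22, limma adjusted p = 0.0568).

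Mndal, Ifi203, Ifi204, Ifi205 and Ifi207 are listed more than once and were not tested. At the chromosome 1 copy of Mndal, laboratory mice 2 and 3 had FPKM values of 3.91 and 6.57, and the wild mice 0.0442, 0.00611 and 0.302. Both laboratory mice were higher than all wild mice for each of these 5 genes, with means between 0.491 and 5.24 in laboratory mice and between 0.0469 and 0.322 in wild mice. The share of all genes for which these mice part in this way was not calculated, so the count has no background. The members of this family resemble each other in sequence, and reads from wild alleles were aligned to the C57BL/6J sequence, so the division of reads between family members is uncertain in both groups.

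**Figure D2:**
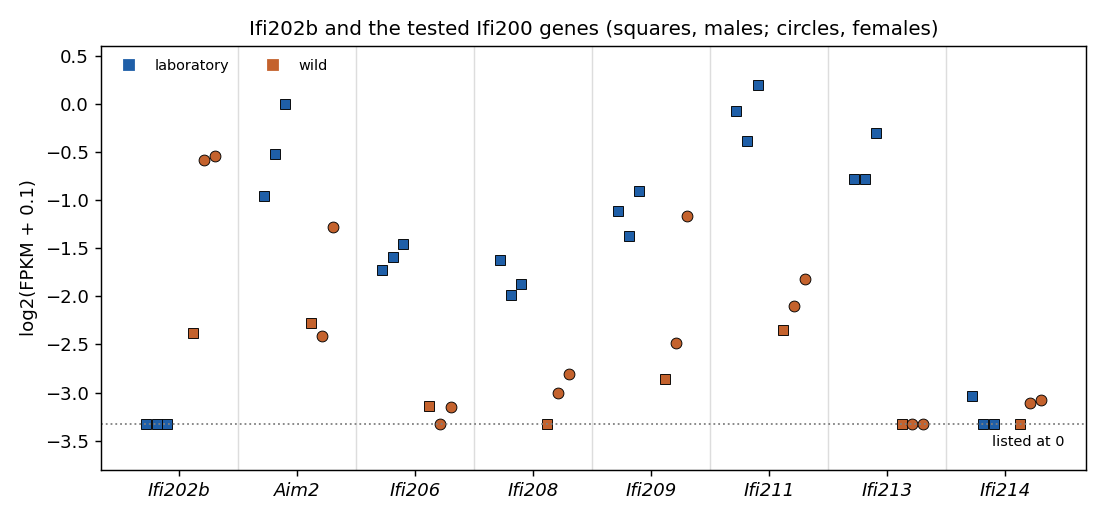
Expression as log2(FPKM + 0.1) (vertical axis) of Ifi202b and the 7 tested genes of the Ifi200 family, with 1 point per mouse, squares for males and circles for females. The dotted line marks genes listed at 0. Ifi202b is on that line in the 3 laboratory mice, and Ifi213 is on it in the 3 wild mice.

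The wider interferon response did not part the groups in one direction. Of 22 such genes, 2 were higher in laboratory mice (Isg20 and Stat2), 1 was lower and 19 did not pass, with a median zFPKM difference of -0.07. Over all tested genes 14.5% were called. The calls of Isg20 and Stat2 were each lost with single mice left out (4 and 2 mice). Bst2, the highest of the list, had FPKM values of 99.1, 150 and 69.7 in the laboratory group against 227, 160 and 201 in the wild group (-0.09, limma adjusted p = 0.713). Wild mouse 1, the lowest wild mouse for Ifi202b, was the highest of them for Bst2 but the lowest for Stat2. The summed FPKM of the interferon list was also highest in wild mouse 1, at 411 against 255 and 323 in wild mice 2 and 3. Bst2 gave the largest part of this sum. The FPKM of Stat2 was 5.10, 5.79 and 10.9 in wild mice 1, 2 and 3. Of 12 macrophage markers 1 was lower in laboratory mice, and of 11 lymphocyte markers 1 was higher, against 14.5% called over all tested genes. Among the wild mice the summed FPKM of both lists was also lowest in wild mouse 1 (49.6 for macrophage and 4.17 for lymphocyte markers). The part of these cells in the values of Ifi202b was not tested.

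Entpd4 lies on the plus strand of chromosome 14 (chr14:69337151-69366742), and a near copy, Entpd4b, lies beyond it on the same chromosome. The GENCODE transcripts of both that were compared are 3589 bases long with 1839 coding bases and differ at 0 bases (100% identity), so reads from these transcripts cannot tell the genes apart. Other transcripts and the rest of each locus were not compared. The first 60 coding bases, which both genes share, are shown with the start codon in capitals. Of them, 8 lie at chr14:69347587-69347594 and 52 at chr14:69349073-69349124 of Entpd4.
Entpd4 and Entpd4b: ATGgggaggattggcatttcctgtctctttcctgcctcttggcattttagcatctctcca
The FPKM of Entpd4b was 1.02 times that of Entpd4 in each of the 6 mice, so the pair is read here as one measurement, not 2.

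The FPKM of Entpd4 was 0.567, 0.554 and 1.36 in laboratory mice 1, 2 and 3, a mean of 0.829 ± 0.464 (SD, n = 3). It was 4.45, 4.92 and 4.13 in wild mice 1, 2 and 3, a mean of 4.50 ± 0.395 (SD, n = 3). The groups did not overlap, and laboratory mouse 3 was above the other two laboratory mice. Summed with Entpd4b, the mean was 1.67 ± 0.937 in laboratory mice and 9.08 ± 0.796 in wild mice (SD, n = 3), which is 5.43 times higher in wild mice.

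In zFPKM the difference of Entpd4 was -0.64 (standard error 0.281, 95% interval -1.19 to -0.09), and it did not pass the adjusted threshold (adjusted p = 0.117, limma). In mean log2 FPKM the difference was -2.57 (exact permutation test, two-sided, p = 0.1). Entpd4 did pass on log2(FPKM + 0.1), at -2.41 (limma adjusted p = 0.00131), after quantile normalization (-0.62, adjusted p = 0.00602) and with the medians of all mice equal (-0.60, adjusted p = 0.00855). The adjusted p over all alternatives ranged from 0.00131 to 0.540, always with the lower value in laboratory mice.

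A list of 15 genes held nucleoside diphosphatases and other enzymes that act mostly on nucleotides. Of these, 1 was higher in laboratory mice, 1 was lower and 13 did not pass (median zFPKM difference -0.25). The 13 include Entpd4b, which is read here as one measurement with Entpd4. Nt5e, the ecto-5′-nucleotidase that makes adenosine from AMP, had FPKM values of 0.264, 0.653 and 0.452 in laboratory mice against 6.41, 20.7 and 23.3 in wild ones (-1.51, limma adjusted p = 3.65e-07). Entpd8, an ecto-nucleotidase of the liver, was at 23.6, 31.9 and 76.8 against 22.4, 26.98 and 23.6 and passed as higher in zFPKM (0.51, adjusted p = 0.00641), while its FPKM overlapped between the groups. Entpd5, a diphosphatase of the endoplasmic reticulum and the highest of the list by FPKM, was at 16.6, 22.2 and 23.4 against 68.8, 67.3 and 59.2 and did not pass (-0.32, adjusted p = 0.118). With sex as a covariate Entpd8 still passed and Nt5e did not (-0.91, adjusted p = 0.106), whereas with single mice left out Nt5e always passed and Entpd8 lost its call without wild mouse 1 (0.41, adjusted p = 0.0748) and without wild mouse 3 (0.53, adjusted p = 0.0517).

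Beside Entpd4, Gm31748 passed as higher in laboratory mice (zFPKM difference 1.36, limma adjusted p = 0.0206), with an FPKM of 0.724, 0.145 and 2.04 against 0.127, 0 and 0.492. Gm16867 on the other side was at 3.65, 3.85 and 5.31 in the laboratory group against 2.64, 2.47 and 2.64 in the wild group and did not pass (0.49, adjusted p = 0.170). Both were on average higher in laboratory mice, the direction opposite to Entpd4.

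Glo1 lies on the minus strand of chromosome 17 (chr17:30592861-30612659). Its FPKM was 127, 149 and 102 in laboratory mice 1, 2 and 3, a mean of 126 ± 23.1 (SD, n = 3). Wild mice 1, 2 and 3 were at 57.2, 333 and 447, a mean of 279 ± 201 (SD, n = 3). The wild male was below all 3 laboratory males and both wild females were above them, so the groups overlapped with the wild mice at both ends. The laboratory mean was 2.20 times the value of the wild male, and the mean of the wild females was 6.82 times that value.

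The spread of Glo1 among the wild mice was 7.82-fold from the lowest to the highest, against 1.51-fold for the median gene. The SD of its log2 FPKM was 1.60 in wild mice, at the 95.4 percentile of 15204 genes above 0 in all mice, and 0.27 in laboratory mice, at the 36.3 percentile. The difference between the groups in mean log2 FPKM was -0.71 (exact permutation test, two-sided, p = 0.4 against a smallest possible value of 0.1).

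In zFPKM the difference of Glo1 was 0.02 (standard error 0.115, 95% interval -0.20 to 0.25, adjusted p = 0.929, limma). This standard error comes from the trend over genes of like level, as for every gene here, and is narrower than the spread of Glo1 itself, whose zFPKM had an SD of 0.649 in wild mice. The direction depended on single mice and on the scale. Without wild mouse 1, which leaves only females in the wild group, the difference was -0.35 (limma adjusted p = 0.0734). On log2(FPKM + 0.1) it was -0.71 (adjusted p = 0.445), and with sex as a covariate it was 0.77 (adjusted p = 0.0109).

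Btbd9, Dnah8 and Glp1r lie in the segment that is duplicated with Glo1 in some inbred strains. Btbd9, its immediate tested neighbour on one side, had FPKM values of 0.904, 0.783 and 0.830 in laboratory mice against 2.52, 2.84 and 3.88 in wild ones, without passing (zFPKM difference -0.41, limma adjusted p = 0.411). In FPKM, Btbd9 was in the same order as Glo1 among the wild mice, but over a smaller range and without falling below the laboratory mice. In zFPKM the groups overlapped for Btbd9. Dnah8 reached at most 0.0553, and Glp1r was listed at 0 in 4 of the 6 mice. The number of gene copies itself was not measured.

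Of the 10 nearest tested genes, 2 passed, both higher in laboratory mice, against 14.5% of all tested genes. LOC102631653, which lies within 1 kb of the midpoint of Glo1 and overlaps it, so that reads of the pair may not have been told apart, was at 0.282, 0.141 and 1.07 against 0, 0 and 0.479 (1.41, limma adjusted p = 0.0217). Tff3, a secreted trefoil factor, was at 38.8, 68.9 and 25.4 in the laboratory group against 0, 0.281 and 0 in the wild group (3.77, adjusted p = 9.45e-30). Both genes were above the floor of -3 in all 3 laboratory mice but in only 1 wild mouse. Each thus met the filter through the laboratory mice, and the size of its difference depends in part on the floor.

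Markers of macrophages and Kupffer cells also spread widely among the wild mice. Their summed FPKM over 12 genes was 49.6, 198 and 433 in wild mice 1, 2 and 3 and between 77.3 and 125 in laboratory mice, in the order of Glo1. The part of these cells, of sex and of trapping site in the spread of Glo1 was not tested. In whole liver, fewer cells of a type and less RNA per cell cannot be told apart.

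Glo1 acts with other enzymes of methylglyoxal and glutathione metabolism. Of 14 listed genes 12 were tested, of which 0 were higher in laboratory mice (0 also at an unadjusted p under 0.05, limma), 2 were lower and 10 did not pass, with a median zFPKM difference of -0.12. Hagh, the glyoxalase II that completes the pathway Glo1 begins, had FPKM values of 126, 189 and 113 in laboratory mice against 286, 191 and 232 in wild ones (-0.01, adjusted p = 0.960). Aldh1a1, an aldehyde dehydrogenase and the highest of the list by FPKM, was at 109, 186 and 100 against 1237, 673 and 807 (-0.72, adjusted p = 4.75e-10). Ldhd, a D-lactate dehydrogenase, was at 18.5, 23.4 and 19.6 against 103, 58.8 and 67.1 (-0.40, adjusted p = 0.0344). The call of Aldh1a1 held with sex as a covariate and with each mouse left out. That of Ldhd was lost with sex as a covariate (-0.45, adjusted p = 0.148) and whichever of the 6 mice was left out, at -0.45, -0.47 and -0.29 without laboratory mouse 1, 2 and 3 and -0.38, -0.42 and -0.41 without wild mouse 1, 2 and 3 (adjusted p between 0.0538 and 0.176). For Hagh, Aldh1a1 and Ldhd the wild male was the highest of the wild mice, the reverse of Glo1.

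Alad lies on the minus strand of chromosome 4 (chr4:62505984-62520063). Its FPKM was 104, 114 and 107 in laboratory mice, a mean of 108 ± 4.84 (SD, n = 3). In wild mice 1, 2 and 3 it was 177, 111 and 95.7, a mean of 128 ± 43.5 (SD, n = 3). The laboratory mice were close to each other and lay within the range of the wild mice, with the wild male the highest of all 6. The SD of log2 FPKM of Alad was 0.0639 in laboratory mice, at the 3.03 percentile, and 0.466 in wild mice, at the 64.9 percentile.

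In zFPKM the difference of Alad was 0.18 (standard error 0.120, 95% interval -0.05 to 0.42, adjusted p = 0.348, limma), and in mean log2 FPKM it was -0.19 (exact permutation test, two-sided, p = 0.8 against a smallest possible value of 0.1). The sign thus differed between the scales, and the mean FPKM of the wild mice was 1.18 times that of the laboratory mice. Without laboratory mouse 3 and wild mouse 1 together, Alad passed as higher in laboratory mice (0.28, limma adjusted p = 0.0151). That setting was added after the data were seen and sets laboratory males against wild females only.

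Hdhd3, a haloacid dehalogenase family gene that shares the duplicated segment of some strains with Alad, is its immediate neighbour. The FPKM of Hdhd3 was 23.8, 31.0 and 16.1 in the laboratory group and 11.3, 4.42 and 7.51 in the wild group. All laboratory mice were higher (zFPKM difference 0.80, limma adjusted p = 0.000126), and the mean FPKM was 3.05 times higher in laboratory mice. Pole3, the neighbour on the other side, was at 11.1, 10.4 and 7.59 against 15.02, 10.6 and 10.8 and did not pass (0.12, adjusted p = 0.745). Hdhd3 was the only one of the 10 nearest tested genes that passed, against 14.5% of all tested genes. Its difference was not tested against that of Alad.

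The genes of heme synthesis and breakdown had calls in both directions. Of 17 listed genes 16 were tested, of which 2 were higher in laboratory mice, 2 were lower and 12 did not pass (median zFPKM difference 0.01). Cpox, which acts later in the pathway than Alad, had FPKM values of 8.15, 12.5 and 8.56 in laboratory mice against 59.2, 44.1 and 43.9 in wild ones (-0.57, limma adjusted p = 0.00382). Fech, which inserts iron in the last step, was at 11.1, 12.8 and 17.1 against 61.4, 56.9 and 56.9 (-0.48, adjusted p = 0.0143). Alas2, the erythroid form of the first enzyme, was at 35.2, 39.3 and 27.7 against 11.1, 6.81 and 6.85 (0.95, adjusted p = 4.99e-07). Blvrb, a biliverdin reductase, was at 164, 181 and 145 against 114, 140 and 177 and passed in zFPKM (0.33, adjusted p = 0.0359) although its FPKM overlapped. Hpx, which binds heme in plasma and was the highest of the list, did not pass (0.20, adjusted p = 0.117). With sex as a covariate, Alas2 and Blvrb still passed and Cpox and Fech did not. Of the 4, only Alas2 passed with each mouse left out, and Blvrb lost its call without any one mouse but laboratory mouse 3 (adjusted p between 0.0546 and 0.214).

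Alas2 is also an erythroid marker. Of 9 tested erythroid markers, 6 were higher in laboratory mice, 0 were lower (1, Tfrc, at an unadjusted p under 0.05, limma) and 3 did not pass. Over all tested genes the shares were 7.17% higher and 7.28% lower. The summed FPKM of the list ranged over 1343 to 5137 among laboratory animals and 734 to 1586 among wild ones, and Rhag was listed at 0 in all mice. Their part in the heme genes, Alad included, was not tested.

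Wdfy1 lies on chromosome 1 (chr1:79702262-79776143). Its FPKM was 2.25, 3.18 and 5.44 in laboratory mice 1, 2 and 3, a mean of 3.62 ± 1.64 (SD, n = 3). Wild mice 1, 2 and 3 were at 4.52, 5.67 and 6.18, a mean of 5.46 ± 0.848 (SD, n = 3). Laboratory mouse 3 was above wild mouse 1, so the groups overlapped. The mean was 1.51 times higher in wild mice, and the difference in mean log2 FPKM was -0.68 (exact permutation test, two-sided, p = 0.2 against a smallest possible value of 0.1). In zFPKM the difference was 0.03 (standard error 0.224, 95% interval -0.41 to 0.47, adjusted p = 0.963, limma). On log2(FPKM + 0.1) it was -0.66 (adjusted p = 0.141), which is -0.19 relative to the median tested gene.

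Of the 20 genes with a FYVE domain or a part in endosomal Toll-like receptor signalling, 0 passed the test (limma), and 1 had an unadjusted p under 0.05. Their median zFPKM difference was -0.09. Zfyve21, the highest of the list by FPKM, was at 6.56, 7.51 and 9.12 in the laboratory group against 22.5, 17.0 and 21.4 in the wild group (-0.24, adjusted p = 0.429). Tlr3, a receptor whose signalling Wdfy1 takes part in, was at 0.491, 0.836 and 1.003 against 0.477, 0.377 and 0.442 (0.52, adjusted p = 0.423).

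Beside Wdfy1, Ap1s3 did not pass (zFPKM difference 0.27, limma adjusted p = 0.725). Mrpl44, a mitochondrial ribosomal protein gene on the other side, was at 3.09, 4.06 and 2.94 in the laboratory group against 20.2, 17.3 and 18.0 in the wild group and was lower in laboratory mice (-0.62, adjusted p = 0.0147). Cul3, a scaffold of ubiquitin ligases, was lower as well (-0.55, adjusted p = 0.0362). The other 8 nearest tested genes did not pass, where 14.5% of all tested genes passed.

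**Figure D3:**
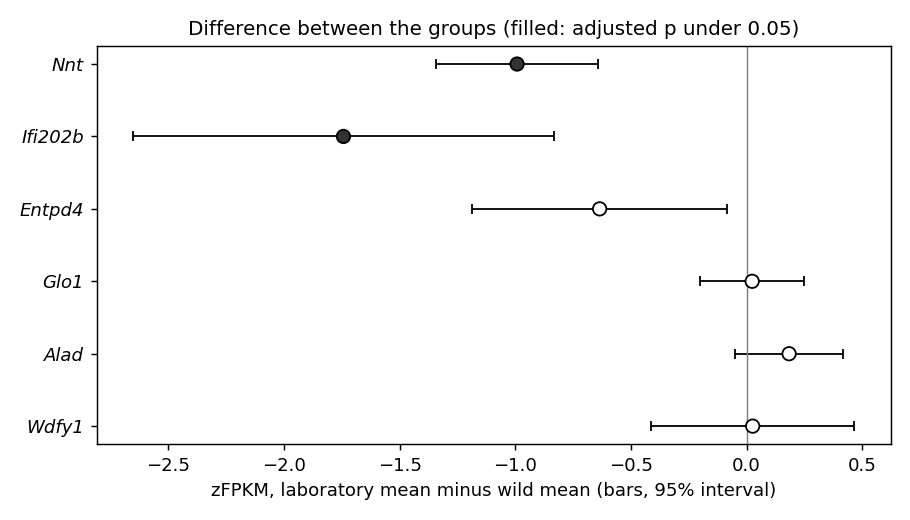
Difference in mean zFPKM, laboratory minus wild (horizontal axis), of each of the 6 genes with its 95% interval from limma; 0 means no difference, and filled points have an adjusted p under 0.05. Nnt, Ifi202b and Entpd4 have intervals below 0, and those of Glo1, Alad and Wdfy1 include 0.

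**Figure D4:**
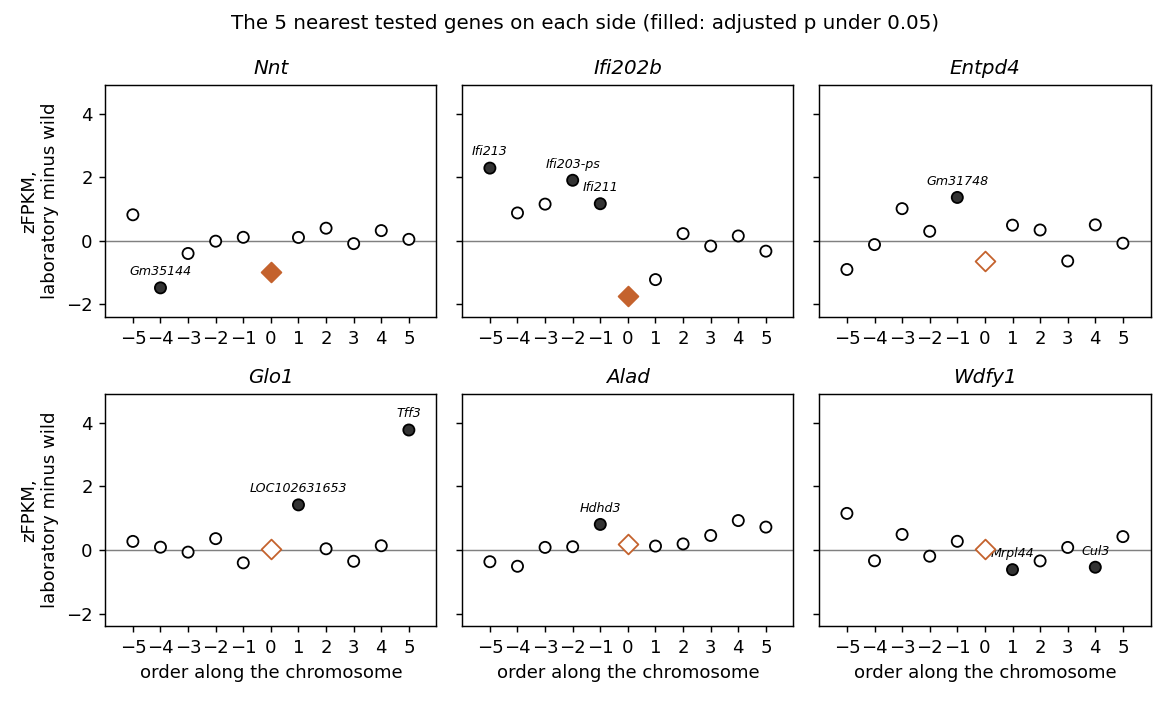
Difference in zFPKM, laboratory minus wild (vertical axis), of each of the 6 genes (diamond at 0) and of the 5 nearest tested genes on each side, in their order along the chromosome. Filled symbols have an adjusted p under 0.05, and the neighbours that pass are named. The distances are not drawn and vary widely, with the farthest midpoint at -4186 kb from that of Wdfy1. The 3 neighbours of Ifi202b that pass are higher in laboratory mice.

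Among the neighbours named as passing, Tff3 and Ifi203-ps also passed with sex as a covariate and with each mouse left out. Tff3 has wild values at the floor in each of these settings. With sex as a covariate Gm35144, Gm31748, LOC102631653, Hdhd3, Mrpl44 and Cul3 did not pass. Leaving out single mice ended the call of Gm35144 and Gm31748 for 4 mice each, of LOC102631653 and Cul3 for 5 mice each and of Mrpl44 for 3.

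Set side by side, the genes ranked by FPKM in nearly the same order in both groups. In laboratory mice Glo1 and Alad were highest and overlapped each other, Wdfy1 and Nnt came next and also overlapped, and Entpd4 and then Ifi202b were lowest. In wild mice Glo1 and Alad overlapped again at the top, and Nnt came next without overlap on either side. Wdfy1 and Entpd4 overlapped below it, and Ifi202b was lowest. Entpd4 was ranked here without Entpd4b. The sum of the pair was 8.98, 9.92 and 8.34 in wild mice 1, 2 and 3, above Wdfy1 in every wild mouse. In laboratory mice 1, 2 and 3 the sum was 1.14, 1.12 and 2.75, which overlapped Wdfy1. Nnt and Wdfy1, which overlapped in laboratory mice, were apart in wild mice, with Nnt at 35.7 or more and Wdfy1 at 6.18 or less.

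**Figure D5:**
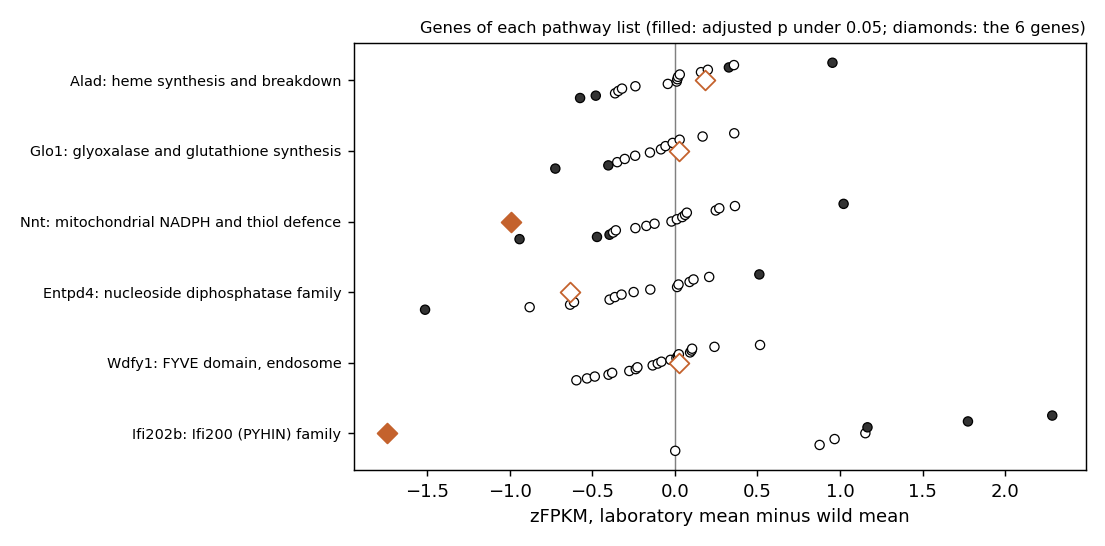
Difference in zFPKM, laboratory minus wild (horizontal axis), of the tested genes of 6 pathway or family lists (points) and of the gene each list belongs to (diamonds); filled symbols have an adjusted p under 0.05. The points of the Ifi200 family lie at or above 0, opposite to Ifi202b, and the other lists have points on both sides of 0. The list of Entpd4 also holds enzymes outside the nucleoside diphosphatase family.

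Many genes had a pattern over the 6 mice like that of Nnt. Its zFPKM followed that of Dnajb9, Mob1a and Gm14239 most closely (Pearson r = 0.999 for each over 6 mice), and 154 tested genes had r above 0.99. For Ifi202b 49 genes did so, led by Gm5239, Gm40376 and Gm13034, which were likewise listed at 0 in the laboratory mice. Entpd4 was followed most closely by Entpd4b and the predicted genes Gm9029 and Gm9030, Glo1 by Pik3r5, Zyx and Cd80, and Wdfy1 by Hps4, Zfp383 and Tns1. Alad was followed by Srd5a1, a steroid 5-alpha-reductase, then by Spon2 and Gm10037, with 1 gene above 0.99. These are descriptions over the same 6 libraries.

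Over all tested genes, the first principal component (43.8% of the variance) parted the groups. The second (32.5%) set laboratory mouse 3 and wild mouse 1 at -48.4 and -52.0 against 17.5 to 33.6 in the other mice, so these mice stood apart within their groups. Defining hepatocyte markers were high in every library as a sum, with an FPKM over 8 genes of 28133 to 38820 among laboratory animals and 20788 to 23845 among wild ones. This sum follows the most abundant markers. Of the 8, 3 were higher in laboratory mice, 2 were lower and 3 did not pass, against 14.5% of all tested genes called. On another scale 2 of the 5 calls changed sign. Without laboratory mouse 3 and wild mouse 1, Nnt, Ifi202b and Entpd4 were lower in laboratory mice and passed the test. Alad was higher and passed, Glo1 was lower and passed (-0.25, limma adjusted p = 0.0442), and Wdfy1 did not pass. In that setting 5678 of 18620 genes passed. Only laboratory males and wild females remained in it, so sex and origin cannot be told apart there.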

How the data were processed

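RNA was sequenced from frozen liver of 3 laboratory and 3 wild mice with a stranded mRNA kit, as single reads. Per the study's methods, the authors aligned the reads with kalign to a repeat-masked genome (GRCm38.p6 per the labels) and calculated FPKM with the Tuxedo pipeline, whose version is not given in the sources used here. The authors deposited FPKM per gene and zFPKM, a score for which they centred and scaled log2 FPKM separately in every library. How reads from near-identical copies were divided is not stated, and reads of alleles that differ from the reference can be lost in alignment.

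The values are not counts, so the count-based test of the study's methods was not run, and depth is unknown. The bounds that Cufflinks listed for 5 of the mice describe an estimate within 1 library and entered no test. Of 47256 gene names listed once for all 6 mice, 24 with a failed estimate, written as 0, were left out. Ifi202b, listed at several loci, was added at the one copy listed for every mouse, which is on an alternate sequence. Values of zFPKM under -3 were raised to -3, and genes above -3 in at least 3 mice were tested with limma 3.58.1 in R 4.3.3 (eBayes with trend, two-sided, Benjamini-Hochberg adjustment, adjusted p under 0.05). The prior degrees of freedom were infinite, so each standard error is that of genes of like level, and a gene's own spread is given as an SD. The procedure was also run on simulated data with independent noise. Those data held no effects of library, sex or floor, so the run cannot show how the procedure behaves under them. FPKM were also compared by exact permutation tests. In the main setting the p-values of limma thus rest on the spread of genes of like level between these mice, not on a gene's own spread. Those of the permutation tests rest on each gene's own values in the 6 mice.

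The genes named are the 6 genes, members of the pathway lists that passed (up to 6 per list by adjusted p) with the highest-expressed member of each list, neighbours that passed or lay next to each gene, the named genes of known duplicated segments, and the 3 genes most like each by Pearson correlation. Hagh, Aim2 and Tlr3 were named for their roles and Tfrc as the only exception to a count. The values of 1 gene of the interferon response list are not reported here. The 6 genes and the lists were chosen with earlier results of these data known. Starts were counted from 0 in the files, so 1 was added. Promoters came from RefSeq on GRCm38.p6 and were found for 4 gene names, and transcripts from GENCODE on GRCm38. Tables and figures were made in Python 3.11.15 with pandas 2.3.3, scipy 1.17.1 and matplotlib 3.10.9.

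The alternatives were floors of -5 and -20, no filter and a filter of -2 in all 6 mice, medians set to 0 per mouse, quantile normalization, log2(FPKM + 1), log2(FPKM + 0.1), no variance trend, sex as a covariate, males only, each mouse left out in turn and, added after seeing the data, laboratory mouse 3 and wild mouse 1 left out together. Both settings without wild mouse 1 compare laboratory males with wild females only, so sex and origin cannot be told apart in them.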

Additional observations from a re-analysis of the deposited data

How the results depend on the processing

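The results rest on 3 mice per group whose depth is unknown, and the number of genes that passed in limma depended strongly on the setting. Against 2691 of 18620 genes, 1197 passed with a floor of -20, 23 without a filter, 795 without a variance trend, 1372 with sex as a covariate and 0 with males only (3120 at an unadjusted p under 0.05), where the spread of 1 wild mouse is assumed to be that of the laboratory mice. More passed after quantile normalization (7284), with the median of each mouse at 0 (5273), on log2(FPKM + 1) (8243) and log2(FPKM + 0.1) (8590), and without laboratory mouse 3 and wild mouse 1 (5678). Leaving out each mouse in turn gave 1420 to 2559. Of 15 calls in the pathway lists, the counts in the same order were 8, 0 (18 at an unadjusted p under 0.05), 6, 9 and 0 (16 at an unadjusted p under 0.05), then 38, 23, 55, 54 and 36, and 8 to 17 with each mouse left out.

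Nnt was lower in laboratory mice in all 18 alternatives, and its call was lost in 4, at -0.99 without a filter (adjusted p = 0.347) and without a variance trend (0.0507) and at -0.78 with sex as a covariate (0.0519) and with males only (0.281). Ifi202b was lower in 17 of 17, a direction that follows from the 0 listed for every laboratory mouse and is no support. Its call was lost in 5. The difference was -1.74 without a filter (limma adjusted p = 0.450) and without a variance trend (0.0506). It was -0.79 with sex as a covariate (0.383) and with males only, and -1.55 without wild mouse 3 (0.0590). With each mouse left out Ifi202b lay between -2.22 and -1.46. Entpd4 was lower in all 18 and passed in 5, after quantile normalization (-0.62), with the median at 0 (-0.60), on log2(FPKM + 1) (-1.61), on log2(FPKM + 0.1) (-2.41) and without laboratory mouse 3 and wild mouse 1 (-0.69), and with each mouse left out it lay between -0.75 and -0.52.

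The sign of the other 3 genes changed. For Glo1 it was negative after quantile normalization (-0.0030), on log2(FPKM + 1) (-0.71) and log2(FPKM + 0.1) (-0.71), and without laboratory mouse 3 and wild mouse 1 (-0.25), and it passed as positive with sex as a covariate (0.77). With each mouse left out, Glo1 lay between -0.35 and 0.25, negative without laboratory mouse 1, laboratory mouse 2 or wild mouse 1. For Wdfy1 it was negative on log2(FPKM + 1) (-0.53) and log2(FPKM + 0.1) (-0.66) and without laboratory mouse 3 and wild mouse 1 (-0.09), and lay between -0.13 and 0.12 with each mouse left out, negative without laboratory mouse 2 or wild mouse 1. For Alad it was negative on both log2 scales (-0.19 on each) and passed as positive without laboratory mouse 3 and wild mouse 1 (0.28), and with each mouse left out it lay between 0.14 and 0.23. On the log2 scales the median tested gene was itself lower in laboratory mice, by -0.20 and -0.47. The cause of the other changes was not tested. No paired analysis was possible because the labels give no replicate numbers that are shared between the groups.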
